A study of Rattus norvegicus with 18 samples.

Results

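The conjugating enzyme genes of rat liver were examined in the BarNa (Barcelona NASH) model of non-alcoholic steatohepatitis (NASH). Genes were taken by symbol from the UDP-glucuronosyltransferase (Ugt1a, Ugt2a, Ugt2b, Ugt3a), cytosolic sulfotransferase (Sult1 to Sult6) and glutathione S-transferase (Gsta, Gstm, Gstp, Gstt, Gstk, Gsto, Gstz and the membrane-bound Mgst) families. Of 32623 genes in the files 42 matched, and 32 of these had at least 10 rounded counts in 6 or more of the 18 rats. They were 5 Ugt, 7 Sult and 20 Gst or Mgst genes, and all 32 were among the 12904 genes tested. The 10 that missed the minimum were Sult1d1, Sult4a1, Sult5a1, Sult6b1, Gstm6, both genes with the symbol Gstm6l, Gstt4, Ugt2b7 and Ugt3a2. No Sult2a or Sult1e symbol, and no Ugt1a symbol but Ugt1a5, was among the 42 matched, so genes of those names are not covered here.

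Conjugation is the step that makes a lipid-soluble compound soluble enough to leave the hepatocyte in bile or blood. Ugt enzymes transfer glucuronic acid to bilirubin, steroids, bile acids and drugs, Sult enzymes transfer sulfate to steroids, thyroid hormones and phenols, and Gst enzymes join glutathione to reactive electrophiles and lipid peroxidation products. Several of these genes are known targets of nuclear receptors that respond to drugs, such as the constitutive androstane receptor (CAR, gene Nr1i3) that phenobarbital activates, and several Gst genes are known targets of the oxidative stress factor Nrf2 (gene Nfe2l2).

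Male Wistar rats made up 3 groups of 6, with 1 liver library per rat. Control rats received standard chow and normal water for 12 weeks. NASH rats inhaled carbon tetrachloride (CCl4), a hepatotoxin, with phenobarbital in the drinking water for 6 weeks, and were then fed HFCD, a diet rich in fat and cholesterol, for 4 weeks without either agent. NASH-CH rats, the group with cirrhosis, inhaled CCl4 with phenobarbital for 8 weeks and then received the HFCD together with both agents for 16 weeks. NASH-CH rats were therefore under phenobarbital at the end and NASH rats were not, and no group received the diet, CCl4 or phenobarbital alone, so the parts of the protocol, its length and the disease cannot be told apart. The labels describe the treatment only as 10 and 24 weeks of the combination. Rats were housed 2 per cage, and the labels do not say which rats shared a cage. The fit therefore treated all rats as independent, and the p-values take no account of any likeness between cage mates.

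Libraries held 19498534 to 27174015 counts in control, 20827770 to 29491947 in NASH and 44680344 to 60117822 in NASH-CH rats. All 10 hepatocyte markers of a list, among them Alb and Ttr, were found in every group, with a summed level of 112828 to 161673 CPM (counts per 1000000) in control, 76999 to 124700 in NASH and 61089 to 119066 in NASH-CH rats. In whole liver, fewer cells of a type and less RNA per cell cannot be told apart. Levels are given below in CPM of each library scaled by the TMM method, which are not corrected for gene length and are compared only between rats. Log2 fold changes, their standard errors (SE) and adjusted p come from 1 limma-voom fit of all 18 rats with Benjamini-Hochberg adjustment over all genes tested. Of the 10 hepatocyte markers, Alb, Ttr and Apoa1 were lower and Hpx higher in NASH-CH rats at an adjusted p under 0.05. The others were not called there, where 17.0% of all genes tested were. In NASH rats Apoa1 alone was called, lower, beside 3.12% of all genes tested. The median log2 fold change of the list was -0.08 in NASH and -0.11 in NASH-CH rats. The marker sum follows its most abundant genes. RSEM divides reads that match several genes, and 23 of the 32 genes had a count that was not whole in at least 1 rat, as had 18.3% of all genes tested. The levels of close relatives, among them the Gsta, Gstm, Sult1c2 and Ugt2b genes, are therefore uncertain in how reads were split.

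Most conjugating enzyme genes did not pass the test in either model. In NASH rats 1 of the 32 genes had an adjusted p under 0.05, Sult1c2a, which was higher, where 3.12% of all genes tested passed (1.58% higher and 1.54% lower). Without adjustment 6 were higher and 3 lower at a p under 0.05, which is 28.1% of the 32, beside 21.5% of all genes tested. In NASH-CH rats 6 of the 32 passed, which is 18.8% of them, where 17.0% of all genes tested passed. Ugt2b10, Gstt3, Gstm3, Gstm7 and Gstp1 were higher and Gsta1 was lower. The 5 higher genes were 15.6% of the 32, beside 8.38% of all genes tested, and the lower gene was 3.12%, beside 8.60%. Of the higher genes, Gstm3 met the minimum of 10 counts only through NASH and NASH-CH rats. Between NASH-CH and NASH rats 1 gene passed, Gstp1, higher in NASH-CH, where 4.20% of all genes tested passed (1.81% higher and 2.39% lower). In all, 7 genes passed in at least 1 comparison and 25 in none. The median log2 fold change of the 32 genes was -0.04 in NASH and 0.12 in NASH-CH rats, beside 0.01 for all genes tested in each. Both comparisons use the same control rats.

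**Figure D1:**
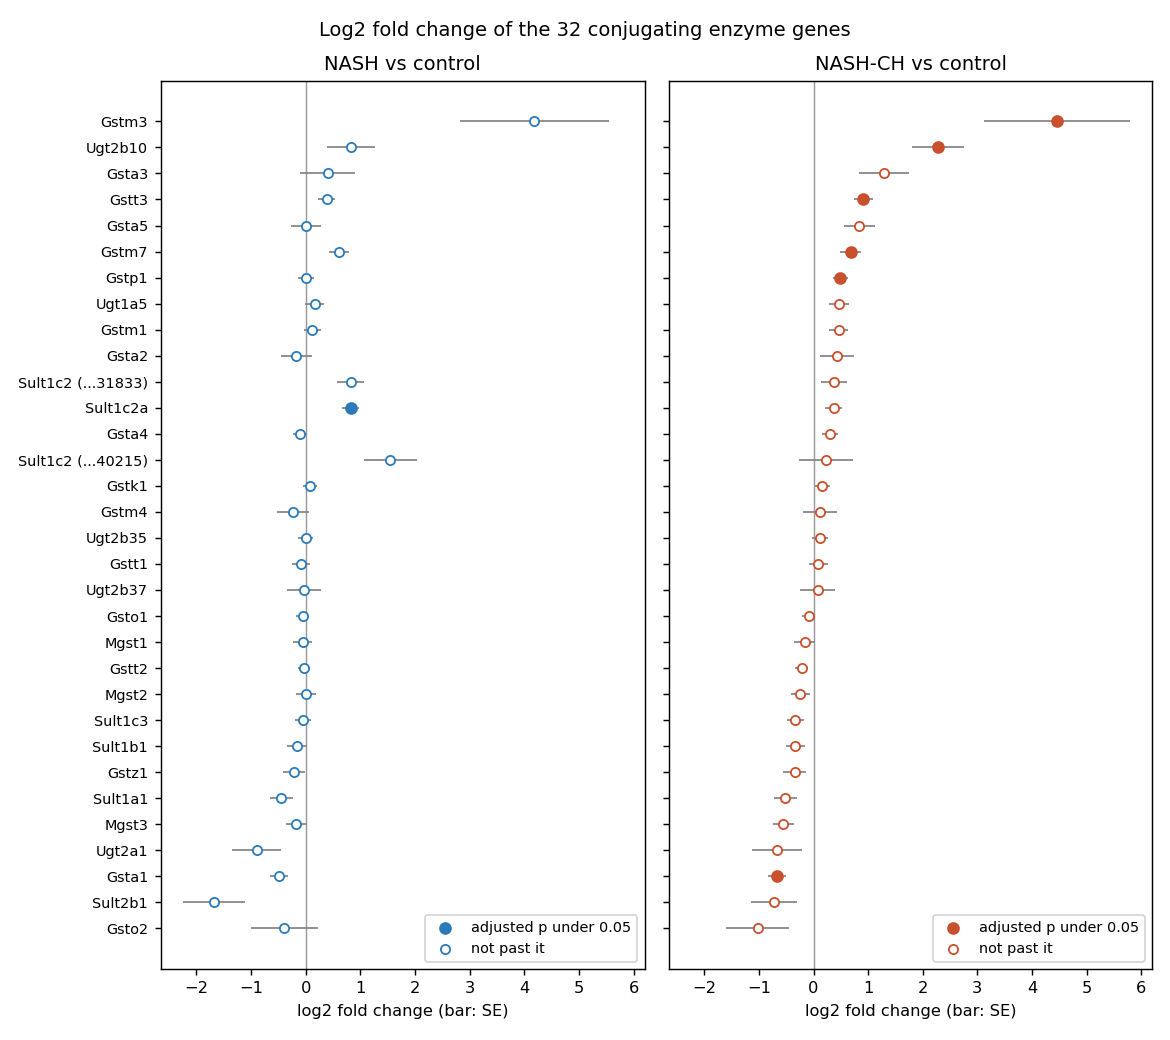
Log2 fold change against control of each of the 32 conjugating enzyme genes, in NASH rats (left) and NASH-CH rats (right). Points are limma-voom estimates from 6 rats a group and bars are ± SE. Filled points have an adjusted p under 0.05, which are 1 gene on the left and 6 on the right. Genes are in the order of their NASH-CH value.

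The number of genes called in NASH rats depended on the tool. edgeR's quasi-likelihood test called 2 higher and 1 lower (Gstm3, Sult1c2a and, lower, Sult2b1), and DESeq2 called 6 higher and 2 lower, where edgeR called 652 (5.05%) and DESeq2 1228 (9.52%) of all genes tested. In NASH-CH rats edgeR called 7 higher and 1 lower, and DESeq2 8 higher and 2 lower, beside 2449 and 2841 of all genes tested. Each of these counts includes the genes of the limma-voom fit. With library size only in place of TMM scaling, limma-voom called 14 higher and 1 lower in NASH-CH rats, beside 3270 of all genes tested (25.3%).

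The promoters of 4 of the 5 genes that were higher in NASH-CH rats are shown to give the sequence in front of them. They are the 250 bases upstream of the RefSeq transcription start in the GRCr8 build, another build than that of the counts, matched by symbol. The promoter of Gstm3 is left out because that symbol is also a synonym of other Gstm genes. One of these is Gstm7, so the match of Gstm7 is uncertain too. In capitals are matches, on either strand, to 6 motifs, the antioxidant response element core TGACNNNGC, the AP-1 site TGANTCA, the GC box GGGCGG, the TATA box TATAAA, the HNF4 site CAAAGTCCA and the palindromic HNF1 site. Ugt2b10 lies at chr14:21462591-21462840 on the plus strand, Gstt3 at chr20:12874368-12874617 on the plus strand, Gstm7 at chr2:198260320-198260569 on the minus strand and Gstp1 at chr1:210769706-210769955 on the minus strand.
Ugt2b10: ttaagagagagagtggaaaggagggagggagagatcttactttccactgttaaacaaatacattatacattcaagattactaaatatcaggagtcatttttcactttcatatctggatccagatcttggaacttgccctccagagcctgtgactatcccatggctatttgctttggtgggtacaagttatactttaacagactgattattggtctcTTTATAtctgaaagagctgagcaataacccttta
Gstt3: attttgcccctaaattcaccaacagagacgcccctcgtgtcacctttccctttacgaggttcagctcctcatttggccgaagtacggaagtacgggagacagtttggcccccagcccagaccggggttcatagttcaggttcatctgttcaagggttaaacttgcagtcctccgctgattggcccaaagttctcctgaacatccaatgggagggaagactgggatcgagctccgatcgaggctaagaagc
Gstm7: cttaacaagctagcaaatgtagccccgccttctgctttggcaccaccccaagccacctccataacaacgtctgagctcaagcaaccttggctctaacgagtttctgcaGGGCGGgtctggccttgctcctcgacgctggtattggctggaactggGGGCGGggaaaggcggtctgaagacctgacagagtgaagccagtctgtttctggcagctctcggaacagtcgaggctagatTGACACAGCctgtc
Gstp1: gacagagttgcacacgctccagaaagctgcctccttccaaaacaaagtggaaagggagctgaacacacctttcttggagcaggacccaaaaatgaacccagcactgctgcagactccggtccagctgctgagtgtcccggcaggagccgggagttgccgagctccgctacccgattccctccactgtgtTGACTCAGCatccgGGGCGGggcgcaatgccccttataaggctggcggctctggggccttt

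In the Gstp1 promoter the antioxidant response element core and the AP-1 site overlapped, both starting 61 bases before the transcription start, with a GC box at 47 bases. The Gstm7 promoter held the antioxidant response element core 14 bases before the start and a pair of GC boxes. The Ugt2b10 promoter held a TATA box on the reverse strand and no other of the 6 motifs, and the Gstt3 promoter held none of them. Exactly 1 promoter of their own symbol, not shared with another of the 32, was found for 23 of the 32 genes. For 5 of these 23 (Gsta1, Gsta2, Gsta5, Gstm3 and Gstm4) the symbol is also a synonym of another gene, so that their match, and the counts of motifs that include them, are uncertain. Gstm7 is among the genes with such a synonym, Gstm3. The antioxidant response element core was in 3 of these 23 (Gstp1, Gstm7 and Gstz1) and in 10.1% of all 33469 promoters of that length, the AP-1 site in 2 and in 6.34%, the GC box in 11 and in 30.5%, and the TATA box in 5 and in 12.9%. The HNF1 and HNF4 sites were in 0 of the 23, and in 0.00299% and 0.338% of all promoters. The motifs were chosen with the Gstp1 promoter known. A match is a description of letters and shows no binding.

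Among the Ugt genes, the level of Ugt2b10, an enzyme of the Ugt2b family, was 106 CPM in the lowest, 126 in the median and 209 in the highest control rat. It was 69.7, 275 and 836 CPM in NASH rats and 492, 699 and 729 CPM in NASH-CH rats. Every NASH-CH rat lay above every control rat, whereas NASH rats lay on both sides of the control range. In NASH-CH rats Ugt2b10 was higher by 2.28 on the log2 scale (SE 0.48, adjusted p = 0.00377), a ratio of mean levels of 4.73. The other 4 Ugt genes did not pass in any comparison, and limma-voom, without adjustment, put 2 of the 5 higher and 0 lower in NASH-CH rats at a p under 0.05, which 31.7% of all genes tested reached in that comparison.

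Ugt2b37 had the highest CPM of the Ugt2b genes on average, with 1100, 1767 and 2889 CPM in the lowest, median and highest control rat. It ran from 848 to 3007 CPM in NASH rats (median 2224) and from 1515 to 2686 CPM in NASH-CH rats (median 1831). The groups overlapped, and NASH rats spread the widest. Ugt2a1, a relative described mainly in olfactory tissue, was at 43.2, 50.1 and 61.1 CPM in control rats. NASH rats were at 7.25, 46.8 and 59.2 CPM, with rats 4 and 5 at 7.25 and 8.63 and the other 4 at 42.0 or more. In NASH-CH rats Ugt2a1 was at 23.9, 31.3 and 53.7 CPM, and 5 of the 6 were below every control rat without passing the test. Ugt1a5, the Ugt1a gene measured here, was at 287, 395 and 593 CPM in control, 366, 453 and 562 CPM in NASH and 441, 573 and 783 CPM in NASH-CH rats. The Ugt1a symbols share most of their exons in a common gene locus, so counts of Ugt1a5 may hold reads of other Ugt1a forms.

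**Figure D2:**
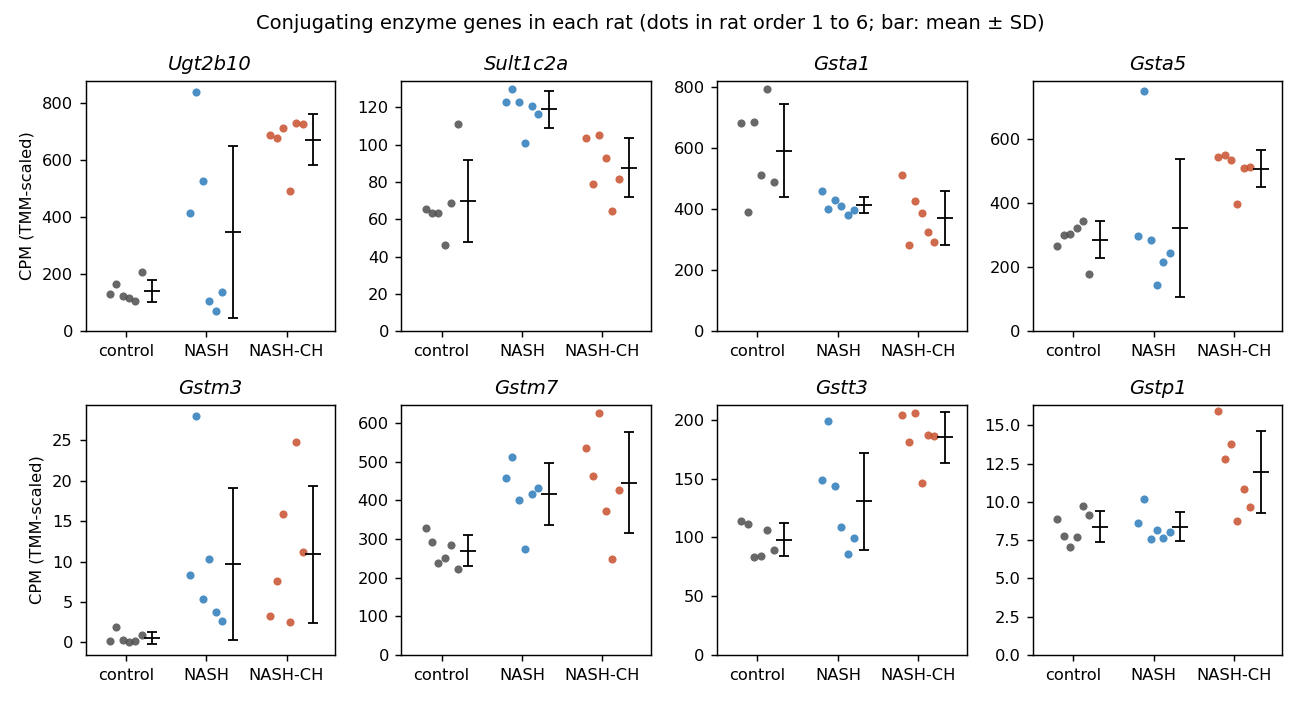
Level in each of the 18 rats, in CPM of TMM-scaled libraries, of the 7 genes that passed in at least 1 comparison and of Gsta5. Dots are rats in the order 1 to 6 within control, NASH and NASH-CH, and the bar at their right is the mean ± SD. Ugt2b10, Gsta5, Gstm3 and Gstt3 lie above every control rat in all 6 NASH-CH rats.

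Of the 7 Sult genes, Sult1c2a, a sulfotransferase of the Sult1c family, was the gene that passed in NASH rats in limma-voom. It was at 46.0, 64.5 and 111 CPM in the lowest, median and highest control rat and at 101, 122 and 130 CPM in NASH rats. Every NASH rat was above 5 of the 6 control rats, and control rat 6, at 111 CPM, lay among them. Sult1c2a was higher in NASH rats by 0.82 on the log2 scale (SE 0.16, adjusted p = 0.0112), a ratio of mean levels of 1.70. NASH-CH rats, at 64.5 to 105 CPM (median 87.0), overlapped both other groups. The symbol Sult1c2 belongs to a pair of genes, ENSRNOG00000031833 and ENSRNOG00000040215, named here after their values were seen. Like Sult1c2a, both had counts that were not whole. ENSRNOG00000031833 was at 6.52, 7.70 and 14.0 CPM in control and 12.4, 16.6 and 17.5 CPM in NASH rats, and ENSRNOG00000040215 at 0.252, 1.28 and 4.20 CPM in control and 2.36, 3.33 and 6.63 CPM in NASH rats. Neither passed in limma-voom, and DESeq2 called both higher.

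Sult1c3, the Sult1 gene with the highest average, was at 295, 313 and 392 CPM in control, 270, 312 and 367 CPM in NASH and 156, 291 and 328 CPM in NASH-CH rats, and the groups overlapped. Sult2b1, which sulfates cholesterol and other hydroxysteroids, was low in every group. It was at 0.323, 1.48 and 2.49 CPM in control and at 0.240, 0.318 and 0.446 CPM in NASH rats, where 3 of the 6 lay below every control rat. These levels rest on 9 to 40 counts per control rat and 7 to 13 per NASH rat. In NASH rats edgeR and DESeq2 called Sult2b1 lower, and limma-voom did not. NASH-CH rats were at 0.258, 0.797 and 1.33 CPM. In NASH-CH rats 0 of the 7 Sult genes passed in limma-voom, edgeR or DESeq2, which called 17.0%, 19% and 22% of all genes tested. At an unadjusted p under 0.05 limma-voom gave 1 higher and 2 lower, beside 31.7% of all genes tested.

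The 20 Gst and Mgst genes, out of 32 in all, held 5 of the 6 calls in NASH-CH rats and 0 of the calls in NASH rats. Of all genes tested 17.0% passed in NASH-CH and 3.12% in NASH rats. For NASH rats limma-voom gave 3 higher and 1 lower at an unadjusted p under 0.05, which 21.5% of all genes tested reached. There edgeR called 1 of the 20, beside 5.05% of all genes tested, and DESeq2 3, beside 9.52%. Within the alpha class, which carries the main hepatocyte transferases and also reduces lipid peroxides, 1 of the 5 genes passed, Gsta1. It was at 390, 597 and 793 CPM in control, 382, 405 and 459 CPM in NASH and 283, 355 and 510 CPM in NASH-CH rats. NASH-CH rats overlapped controls, with 4 of the 6 below every control rat. In NASH-CH rats Gsta1 fell by 0.67 on the log2 scale (SE 0.17, adjusted p = 0.0119), a ratio of mean levels of 0.627.

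Gsta5, which is known for conjugating aflatoxin epoxide in rats, was named after its values were seen. It was at 179, 301 and 344 CPM in control, 143, 264 and 747 CPM in NASH and 396, 523 and 548 CPM in NASH-CH rats. Every NASH-CH rat was above every control rat, but the adjusted p was 0.0506 in limma-voom, whereas edgeR and DESeq2 called Gsta5 higher. Counts of both genes were not whole in all 18 rats, so part of their reads was shared with similar sequences. Of all 32 genes 4 had every NASH-CH rat above every control rat (Gsta5, Gstt3, Ugt2b10 and Gstm3), which is 12.5%, beside 3.64% of all genes tested. In NASH rats 1 gene did so, Gstm3, beside 1.77% of all genes tested, and 0 of the 32 had every rat of a model below every control rat, beside 1.39% of all genes tested in NASH and 3.46% in NASH-CH. Between the models 0 of the 32 had every NASH-CH rat above or below every NASH rat, beside 1.36% and 2.10% of all genes tested. Gstm3 met the count minimum only through rats of the models, so its separation from control rats is no independent support.

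In the mu class, which conjugates a broad range of electrophiles, 2 of the 4 genes passed in NASH-CH rats, beside 17.0% of all genes tested. Gstm3 was close to the detection limit in control rats, at 0.0827, 0.226 and 1.93 CPM, which rests on 2 to 50 counts. It was at 2.69, 6.83 and 28.0 CPM in NASH and at 2.51, 9.38 and 24.8 CPM in NASH-CH rats, which rests on 85 to 653 and 115 to 1910 counts. Both models lay above every control rat. In NASH-CH rats Gstm3 was higher by 4.46 on the log2 scale (SE 1.34, adjusted p = 0.0297), a ratio of mean levels of 18.4, and the call was lost without control rat 1, 3, 4 or 5. The adjusted p in NASH rats was 0.0903.

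Gstm7 was at 222, 268 and 329 CPM in control, 275, 425 and 514 CPM in NASH and 249, 445 and 628 CPM in NASH-CH rats. In each model 5 of the 6 rats were above every control rat. Gstm7 was higher in NASH-CH rats by 0.68 on the log2 scale (SE 0.19, adjusted p = 0.0179), a ratio of mean levels of 1.65, and the adjusted p in NASH rats was 0.0656. Gstm1, the mu class gene with the highest average, was at 500, 631 and 721 CPM in control, 509, 620 and 1049 CPM in NASH and 620, 810 and 1105 CPM in NASH-CH rats. There, 5 of the 6 NASH-CH rats were above every control rat, with an adjusted p of 0.0692 in limma-voom.

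In the theta class Gstt3 was at 83.5, 97.9 and 114 CPM in control, 86.3, 126 and 199 CPM in NASH and 146, 187 and 206 CPM in NASH-CH rats. Every NASH-CH rat was above every control rat, and 3 of the 6 NASH rats were. Gstt3 was higher in NASH-CH rats by 0.91 on the log2 scale (SE 0.17, adjusted p = 0.00166), a ratio of mean levels of 1.89. Its counts were whole in all 18 rats. The other 2 Gstt genes did not pass, with 15.8 to 59.5 CPM over all rats.

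Gstp1, the pi class transferase, is known as a marker of preneoplastic foci in rat liver and is otherwise expressed mainly in bile duct cells. It was at 7.07, 8.33 and 9.72 CPM in control, 7.60, 8.10 and 10.2 CPM in NASH and 8.78, 11.8 and 15.9 CPM in NASH-CH rats. NASH and control rats overlapped almost wholly, and 4 of the 6 NASH-CH rats lay above every rat of the other groups. Gstp1 was higher in NASH-CH than in control rats by 0.49 on the log2 scale (SE 0.14, adjusted p = 0.0210), a ratio of mean levels of 1.42, and higher than in NASH rats by 0.49 (SE 0.13, adjusted p = 0.0457), a ratio of 1.43. The first call was lost without control rat 3 or 4, and the second in 9 of 12 fits that left out 1 rat. The summed level of 10 cholangiocyte and progenitor markers, of which 5 averaged under 1 CPM in NASH-CH rats and 0 were at 0 in every rat, was 28.7 to 31.7 CPM in control, 26.5 to 34.2 CPM in NASH and 27.5 to 95.4 CPM in NASH-CH rats. Its highest value was in NASH-CH rat 5, where Gstp1 was at 10.8 CPM, and Gstp1 was highest in NASH-CH rat 1, where the marker sum was 37.4 CPM. NASH-CH rat 4 was the lowest of its group for both, at 27.5 CPM for the marker sum and 8.78 CPM for Gstp1. The part of bile duct cells in the Gstp1 level was not tested.

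The remaining classes showed no call in limma-voom, and DESeq2 called Mgst3 lower in NASH-CH rats. Gstk1, a peroxisomal and mitochondrial transferase, was at 56.7 to 86.8 CPM in control, 62.8 to 81.8 CPM in NASH and 60.3 to 96.9 CPM in NASH-CH rats. Gsto1, which acts as a thiol transferase, was at 41.4 to 61.2, 41.1 to 53.6 and 33.4 to 54.8 CPM, and Gstz1, an enzyme of tyrosine breakdown, at 228 to 444, 227 to 356 and 146 to 411 CPM in the same order of groups. Mgst1, which protects endoplasmic reticulum and mitochondrial membranes from peroxides, was at 784 to 1327 CPM in control, 704 to 1140 CPM in NASH and 560 to 1282 CPM in NASH-CH rats. The groups overlapped for each of these genes.

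Summed over the genes of a class, levels overlapped between the groups. The 5 Ugt genes summed to 2178, 3056 and 3933 CPM in the lowest, median and highest control rat, to 1660, 3513 and 5122 CPM in NASH and to 3289, 3705 and 4649 CPM in NASH-CH rats. The 7 Sult genes summed to 816, 971 and 1208 CPM in control, 781, 925 and 976 CPM in NASH and 593, 807 and 1039 CPM in NASH-CH rats. The 20 Gst and Mgst genes summed to 2941, 3618 and 4279 CPM in control, 2711, 3568 and 4809 CPM in NASH and 3147, 3933 and 4946 CPM in NASH-CH rats. Each sum follows its most abundant genes, and no test was made of it.

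**Figure D3:**
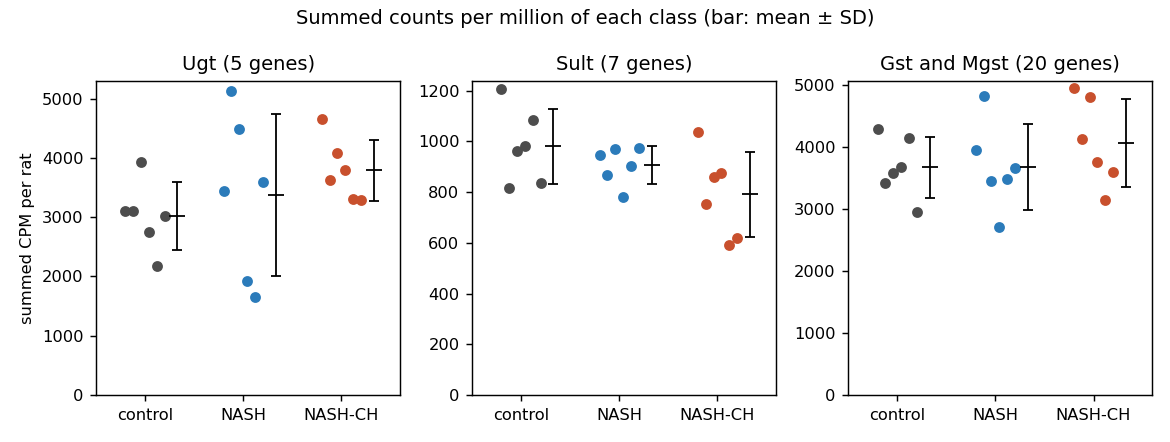
Summed level of the 5 Ugt, 7 Sult and 20 Gst and Mgst genes in each rat, in CPM of TMM-scaled libraries. Dots are rats and bars are mean ± SD of 6 rats, and in every class the 3 groups overlap.

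Other genes were counted in 7 lists, among them 22 regulators and 17 inducible oxidation and reduction enzymes, which are not themselves genes of conjugation. The lists held 96 genes tested. In NASH rats 3 of the 96 were higher and 4 lower, which is 7.29%, beside 3.12% of all genes tested. All 3 higher genes, Ppara, Cyp3a9 and Aldh1a1, were regulators or inducible enzymes. In NASH-CH rats 10 of the 96 were higher and 11 lower, which is 21.9%, beside 17.0% of all genes tested. There the inducible enzymes gave 5 higher and 1 lower, and the regulators 1 higher and 2 lower. With library size only the counts of the 96 became 9 higher and 2 lower in NASH and 16 higher and 4 lower in NASH-CH rats. Between NASH-CH and NASH rats 4 were higher and 3 lower, beside 4.20% of all genes tested. The same shares of all genes tested are the background for each single list. In the list around UDP-glucuronic acid, which the Ugt enzymes use, 1 of 5 genes passed. It was Slc35b1, a transporter of nucleotides into the endoplasmic reticulum, which fell by 0.58 on the log2 scale in NASH rats (SE 0.16, adjusted p = 0.0496). Ugp2, Ugdh and Slc35d1 of that list did not pass. Of the genes that supply activated sulfate (PAPS), handle sulfate or sulfate proteins, 3 of 11 fell in NASH-CH rats. They were the PAPS synthase Papss2 (-0.50), the steroid sulfatase Sts (-0.48), which removes sulfate, and the protein sulfotransferase Tpst2 (-0.67).

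Of 16 genes of glutathione synthesis and recycling, 3 fell in NASH rats. Among them were Gss, the last enzyme of glutathione synthesis (-0.55), and the malic enzyme gene Me1 (-1.60). In NASH-CH rats the secreted peroxidase Gpx3 was higher by 1.96, and Me1 (-1.10) and the lipid peroxidase Gpx4 (-0.61) were lower. Gss was at 21.2 to 34.7 CPM in control, 15.6 to 24.8 CPM in NASH and 25.5 to 38.1 CPM in NASH-CH rats, and was higher in NASH-CH than in NASH rats by 0.53 (SE 0.14, adjusted p = 0.0342). Of 10 genes of conjugate export and mercapturic acid formation, 3 were higher in NASH-CH rats. They were the exporters Abcc3 (2.95) and Abcc1 (0.61) and the dipeptidase Dpep1 (1.97). Of 15 genes of other conjugations 3 fell in NASH-CH rats, the bile acid conjugating enzyme Baat (-0.54) and the methyltransferases Gnmt (-1.15) and As3mt (-0.36).

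Among 22 regulators, the fatty acid receptor gene Ppara was higher in NASH (0.91) and in NASH-CH rats (0.88). In NASH-CH rats Nr1i3, which encodes CAR, and Cebpb were lower than in control rats (-0.87 and -0.89) and lower than in NASH rats (-1.51 and -1.03). Nr1i3 was at 6.08, 12.4 and 18.4 CPM in control, 12.8, 16.3 and 25.1 CPM in NASH and 4.37, 5.96 and 11.0 CPM in NASH-CH rats, so that every NASH-CH rat was below every NASH rat. Of 17 inducible oxidation and reduction enzymes, 2 were higher in NASH rats, the retinal dehydrogenase gene Aldh1a1 (2.20) and 1 of the 2 genes with the symbol Cyp3a9 (1.20). In NASH-CH rats 5 were higher and 1 was lower. Those higher included Aldh1a1 (2.10), the same Cyp3a9 gene (1.39), the epoxide hydrolase Ephx1 (1.31) and the aldo-keto reductase Akr1b10 (1.88).

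NASH rats differed among themselves in some of these genes, which were chosen after their values were seen. Ugt2b10 was at 414, 836 and 524 CPM in NASH rats 1, 2 and 3 and at 105, 69.7 and 137 CPM in NASH rats 4, 5 and 6. The first 3 were above every control rat and the others were within or below the control range. Gstt3 was at 149, 199 and 143 CPM in the first 3 and at 108, 86.3 and 99.9 CPM in the others. Cyp2b2, a cytochrome P450 gene widely used as a readout of phenobarbital induction, was at 98.5, 1105 and 201 CPM in NASH rats 1, 2 and 3 and at 14.7, 5.99 and 6.10 CPM in NASH rats 4, 5 and 6. Control rats were at 6.56 to 47.2 CPM and NASH-CH rats at 556 to 1058 CPM, and Cyp2b2 was higher in NASH-CH than in control rats by 4.96 on the log2 scale (SE 1.20, adjusted p = 0.00946).

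Abcc3, which exports glucuronides to the blood, was at 8.47, 34.2, 14.3, 6.50, 1.44 and 1.77 CPM in NASH rats 1 to 6, at 1.26 to 2.18 CPM in control rats and at 6.38 to 46.9 CPM in NASH-CH rats, of which rats 5 and 6 were at 46.9 and 44.9 CPM and the others at 7.53 or less. NASH rat 2 had the highest level of the NASH group for Ugt2b10, Gstt3, Cyp2b2, Abcc3, Gsta5, Gstm1 and Gstm3. Not every Ugt2 gene was ordered in this way. NASH rat 6, which was low in Ugt2b10, was at 42.0 CPM for Ugt2a1 and 2472 CPM for Ugt2b37, whereas NASH rats 4 and 5 were at 7.25 and 8.63 CPM for Ugt2a1 and at 860 and 848 CPM for Ugt2b37. The hepatocyte marker sum was 124700, 93205 and 91424 CPM in NASH rats 1, 2 and 3 and 76999, 107672 and 103797 CPM in NASH rats 4, 5 and 6. The part of hepatocyte content in these differences was not tested. The labels give no feature of the rats beyond the group, and no grouping of NASH rats was tested.

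**Figure D4:**
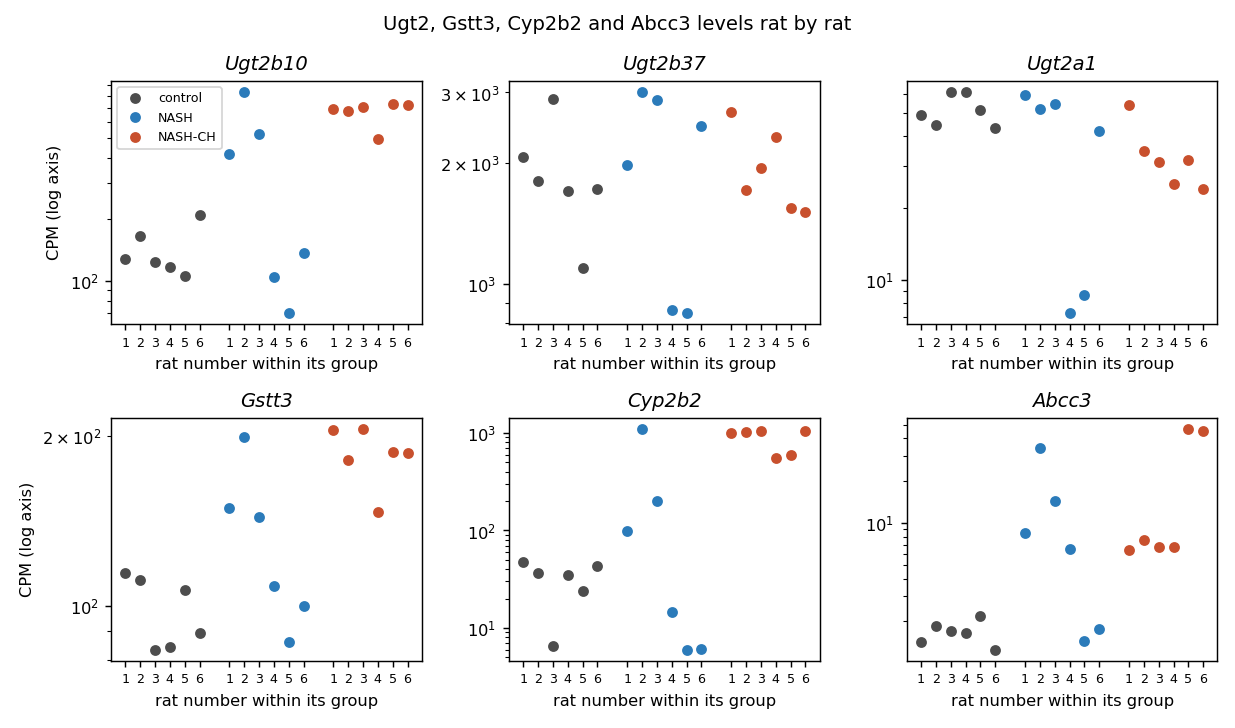
Level of Ugt2b10, Ugt2b37, Ugt2a1, Gstt3, Cyp2b2 and Abcc3 in each rat, in CPM on a log axis, by rat number within control, NASH and NASH-CH. In NASH, rats 1, 2 and 3 are higher than rats 4, 5 and 6 for Ugt2b10, Gstt3, Cyp2b2 and Abcc3, and NASH-CH rats lie above every control rat for the same 4 genes.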

How the data were processed

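Liver RNA of 18 rats was sequenced with a TruSeq stranded mRNA kit. RNA was extracted with the RNAqueous-Micro kit according to the labels, or the miRNeasy kit according to the methods. After adapter trimming, the authors aligned reads to Rnor_6.0 (STAR, 2-pass) and obtained gene counts from RSEM on the annotation of Ensembl release 95 (tools also named in the submitters' processing notes, without versions). The deposited values are RSEM expected counts (estimated counts per gene), not normalized.

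Counts were rounded, scaled by TMM (edgeR 4.0.16), filtered by filterByExpr and tested with limma 3.58.1 voom in R 4.3.3, in 1 fit of 18 rats with a mean per group and a threshold of 0.05 on the Benjamini-Hochberg adjusted p. The methods name no filter. Totals ran from 19498534 to 60117822 counts per rat, and precision also depends on the 6 rats per group. DESeq2 1.42.0, edgeR's quasi-likelihood test and the other alternatives given at the end were run beside it. The scripts were tested on simulated data.

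Genes named were those past the threshold, the most abundant of each subfamily, and at most 4 of each other list. The result for 1 gene of these lists is not reported here. The members and lists were chosen with earlier results of these data known. Promoters came from RefSeq (GRCr8), read with Python 3.11.15. The deviations of same-numbered rats correlated by -0.0970 to 0.172 in NASH and control and by 0.0199 to 0.109 in NASH-CH and control rats. In NASH-CH and NASH rats they correlated by -0.0403 to 0.0626. These correlations were weak, and rats were not paired.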

Additional observations from a re-analysis of the deposited data

Results flagged for a closer look

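In 10 of the 102 groups of 6 rats formed by the 32 conjugating enzyme genes, Cyp2b2 and Abcc3, the highest or the lowest rat stood apart from the others by Dixon's criterion, which chance meets in about 1 group in 20. The groups are not independent, since several genes share the same rats and reads.

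NASH rat 2 was the high rat for 4 genes. It was at 747 CPM for Gsta5, where the next rat was at 296, at 28.0 CPM for Gstm3 (next 10.3), at 1049 CPM for Gstm1 (next 684) and at 1105 CPM for Cyp2b2 (next 201). NASH-CH rat 4 was the low rat for Gsta5, at 396 CPM with the next at 507, and for Ugt2b10, at 492 CPM with the next at 677. Control rat 6 was high for Sult1c2a, at 111 CPM with the next at 68.7, and for the Sult1c2 gene ENSRNOG00000040215, at 4.20 CPM with the next at 1.70, and it was low for Gstt1, at 17.0 CPM with the next at 23.7. NASH-CH rat 1 was high for Ugt2a1, at 53.7 CPM with the next at 34.6.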

How the results depend on the processing

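The calls of Sult1c2a in NASH and of Gstt3, Ugt2b10, Gsta1 and Gstm7 in NASH-CH rats held in every alternative that kept the threshold of 0.05 with no fold minimum. At an adjusted p under 0.01 only Gstt3 and Ugt2b10 of the 8 calls held, and with a log2 fold change of at least 1 only Ugt2b10 and Gstm3. No alternative turned the direction of any of the 8 calls. Gstp1 lost its call against control with only the 2 groups fitted, and against NASH with only the 2 groups, with the replicate block and without small non-coding RNA genes, an alternative chosen after seeing the data. Gstm3 could not be tested with at least 10 counts in every rat.

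The 1 conjugating enzyme gene called in NASH became 3 with edgeR, 8 with DESeq2, 6 with library size only, 4 with only the 2 groups, 7 with sample quality weights, and 0 at an adjusted p under 0.01 or with a log2 fold change of at least 1. Of all genes tested, 5.05% passed in NASH with edgeR, 9.52% with DESeq2, 6.7% with library size only, 5.2% with the 2 groups and 11.7% with quality weights. The 6 in NASH-CH became 10 with DESeq2, 15 with library size only, 10 with no filter on low counts, and 2 at either stricter threshold. With DESeq2 22% of all genes passed in NASH-CH, with library size only 25.3% and with no filter 26.3%. The 1 between NASH-CH and NASH became 4 with no filter, 2 with quality weights, and 0 with the replicate block, without small non-coding RNA genes and at either stricter threshold. Of all genes, 12.7% passed between these groups with no filter, 6% with quality weights, 4.18% with the block and 2.3% without small non-coding RNA genes. The 7 genes of the other lists in NASH became 17 with DESeq2, 11 with library size only, 4 with no filter, 16 with quality weights, 1 at an adjusted p under 0.01 and 4 with the fold minimum. The 21 in NASH-CH became 12 and 10 at the stricter thresholds, and the 7 between NASH-CH and NASH became 13 with DESeq2 and 14 with no filter. The shares of all genes above are also the background of the other lists. In addition, 1.28% passed in NASH with no filter and 7.35% between NASH-CH and NASH with DESeq2. The cause of these moves was not tested.

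With library size only, all genes had a median log2 fold change of 0.23 (NASH) and 0.27 (NASH-CH), and there were 14 higher and 1 lower conjugating enzyme gene in NASH-CH (5 and 1 with TMM), and 9 higher and 2 lower other genes in NASH (3 and 4) and 16 higher and 4 lower in NASH-CH (10 and 11). Leaving out 1 rat gave 1 to 4 conjugating enzyme genes in NASH (4 without control rat 6), 4 to 11 in NASH-CH (4 without control rat 3 or 4, 11 without control rat 6) and 0 to 5 between NASH-CH and NASH (5 without NASH rat 2, 0 in 8 of 12 fits), and 3 to 11, 14 to 25 and 5 to 11 genes of the other lists.

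With the replicate number as a block, 1, 8 and 0 conjugating enzyme genes passed in the 3 comparisons, beside 3.44%, 16.2% and 4.18% of all genes. Same-numbered rats correlated by 0.0539 on average in NASH and control, 0.0669 in NASH-CH and control and 0.0101 in NASH-CH and NASH rats, and 2, 3 and 1 of 6 correlated best with their own number. Gstm3, Gsto2, Sult2b1 and the Sult1c2 gene ENSRNOG00000040215 had under 10 counts in some rats, which limits their precision.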
